A study of Staurois parvus with 11 samples.

Results

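Skeletal muscle of the thigh (leg muscle) and spinal cord of adult male Staurois parvus, a foot-flagging frog kept as a captive colony, were compared by RNA-seq. Libraries were chosen by the tissue that the sample labels name, which gave 5 of leg muscle and 4 of spinal cord, 9 of the 11 libraries of the series (the other 2 are of brain). No treatment is described for either tissue, and no genotype, exact age, thigh muscle or level of the cord is given in the sources used here. The labels call the libraries of each tissue biological replicates but name no frog. The 4 spinal cords came from 4 frogs, whereas whether the 5 leg muscles came from separate frogs, and which tissues share a frog, is not given in the sources used here. The p-values that follow therefore measure the spread between these samples, which may be technical in part.

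Skeletal muscle fibers contract when a motor neuron releases acetylcholine at the neuromuscular junction, the muscle membrane fires, and the sarcoplasmic reticulum releases calcium onto the thin filaments. The spinal cord holds the cell bodies of those motor neurons, the interneurons that pattern their firing, and the glia that wrap and feed the axons. The comparison sets the effector of the limb against the circuit that drives it, and the genes are described in that order.

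Levels are counts per 1000000 reads (CPM), scaled by TMM, a trimmed mean of the log ratios between libraries. A Log2FC is leg muscle over spinal cord, SE is its standard error, and each adjusted p comes from edgeR's quasi-likelihood test with Benjamini-Hochberg adjustment over all transcripts tested. Of 13923 transcripts tested, 3585 were higher in leg muscle and 4160 in spinal cord at an adjusted p under 0.05, which is 25.7% and 29.9%. In 2871 transcripts (20.6%) all 5 leg muscles lay above all 4 spinal cords, and in 3543 (25.4%) all lay below. The median Log2FC of all transcripts tested was -0.10. Counted reads ran from 31242008 to 56082082 in the leg muscles and from 12339432 to 18607450 in the spinal cords. TMM multiplied these library sizes by factors of 0.389 to 0.752 in the leg muscles and 1.68 to 2.03 in the spinal cords. With these factors, the TMM-scaled level of 3 reads, below which a level cannot be told from 0, was 0.126 to 0.228 CPM in a leg muscle and 0.0872 to 0.134 CPM in a spinal cord. A leg muscle spent 39.3% to 53.7% of its reads on its 10 most abundant transcripts, and a spinal cord 5.70% to 7.35%. Scaling by library totals alone, without TMM, moved the median of all transcripts by -1.85, and where this setting turned the median of a list, its value is given with the list. Gene names are the best protein match of each predicted transcript, so members of a family can carry each other's name.

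Some libraries stood apart within their tissue. Genes on an epidermis list (keratins, transglutaminases and desmosome proteins) summed to 27020, 6655, 106797, 2707 and 2936 CPM in leg muscles 1 to 5. In spinal cords 1 to 4 they summed to 584, 1345, 2106 and 4229 CPM. The member annotated keratin, type II cytoskeletal 8 was at 1274.5 to 2610 CPM in the leg muscles and 306 to 1743 CPM in the spinal cords. KRT1 was at 1.27 and 46.3 CPM in leg muscles 4 and 5 and at most 7.27 CPM in a spinal cord. The sums of leg muscles 4 and 5 and of the spinal cords therefore cannot be read as amounts of skin. Genes of cartilage and bone summed to 247, 149.6, 244, 1213 and 7567 CPM in leg muscles 1 to 5 and 143, 129, 238 and 208.5 CPM in the spinal cords. Epidermal transcripts were thus highest in leg muscles 3 and 1, and skeletal transcripts in leg muscles 5 and 4. In the spinal cords, secreted proteins of the liver summed to 3810 CPM in library 1 and to 61.4, 185 and 414 CPM in libraries 2 to 4, and enzymes of the exocrine pancreas to 863 CPM in library 1 and 12.2, 6.11 and 26.1 CPM in the others. These 4 lists were drawn up after their leading genes were seen. The names of the deposited counts carry a lane tag, which is 2 for spinal cords 1 and 2 and 1 for the remaining 7 libraries. The sample labels give no lane, and whether equal tags mean the same run is not given in the sources used here. Sarcomere transcripts summed to 2130, 1742, 441 and 262 CPM in spinal cords 1 to 4, against 187047 to 552926 CPM in the leg muscles.

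**Figure D1:**
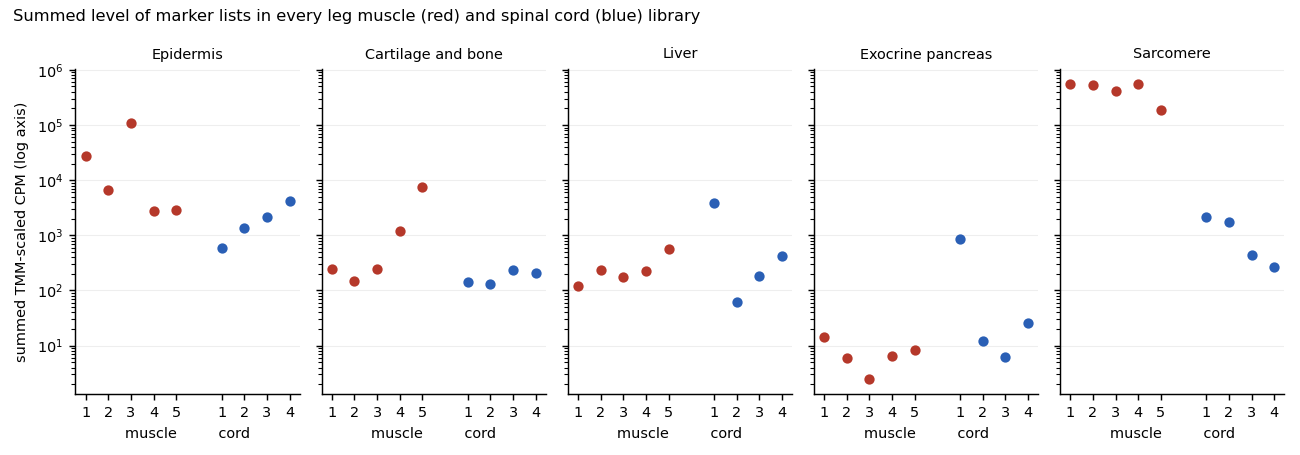
Summed TMM-scaled CPM (log axis) of 5 marker lists in each leg muscle library (red, 1 to 5) and spinal cord library (blue, 1 to 4). Epidermal genes were highest in leg muscle 3 at 106797 CPM, cartilage and bone genes in leg muscle 5 at 7567 CPM, liver and pancreas genes in spinal cord 1 at 3810 and 863 CPM, and sarcomere genes were lowest, among leg muscles, in leg muscle 5.

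The defining transcripts of each tissue followed the labels. The muscle creatine kinase CKM and the giant sarcomere protein TTN were far higher in every leg muscle than in any spinal cord. CKM, which buffers ATP in the working fiber, was at 318259, 440468, 220560.0, 340388 and 119585 CPM in leg muscles 1 to 5 and 1119, 1498, 144 and 35 CPM in spinal cords 1 to 4. The groups did not overlap, and leg muscle 5 was the lowest of its tissue (Log2FC = 8.69, SE 1.51, adjusted p = 0.00047). In the spinal cord, the light neurofilament chain nefl of large axons reached 2091, 3583, 3129.7 and 1651 CPM, against 0.685, 0.827, 0.549, 0.381 and 1.6 CPM in the leg muscles (Log2FC = -11.64, SE 0.56, adjusted p = 7.7e-08). The myelin protein mbp was at 5268, 3694, 6584 and 5611 CPM in the spinal cords and 66.8, 135, 50.5, 61 and 257 CPM in the leg muscles, with leg muscle 5 the highest of its tissue (Log2FC = -5.54, SE 0.56, adjusted p = 6.8e-06). In whole-tissue RNA, fewer cells of a type and less RNA per cell cannot be told apart. Markers that define fibers or neurons but lack a name in the annotation, such as skeletal myosin heavy chains, were not analysed here.

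Gene groups separated along the functions of the 2 tissues, and the plot of calls by list shows how far. All 19 members of the myosin, titin and M-band list were higher in leg muscle, as were 13 of 14 thin filament and 17 of 18 Z-disc and costamere genes. At the other end, all 13 motor neuron and cholinergic genes and all 15 myelin and oligodendrocyte genes were higher in spinal cord, as were 11 of 12 genes each of glycine and GABA transmission and of glutamate transmission. Over all transcripts the shares were 25.7% and 29.9%. Most lists of energy metabolism leaned to leg muscle and the neural transcription factors to spinal cord, with members on both sides.

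**Figure D2:**
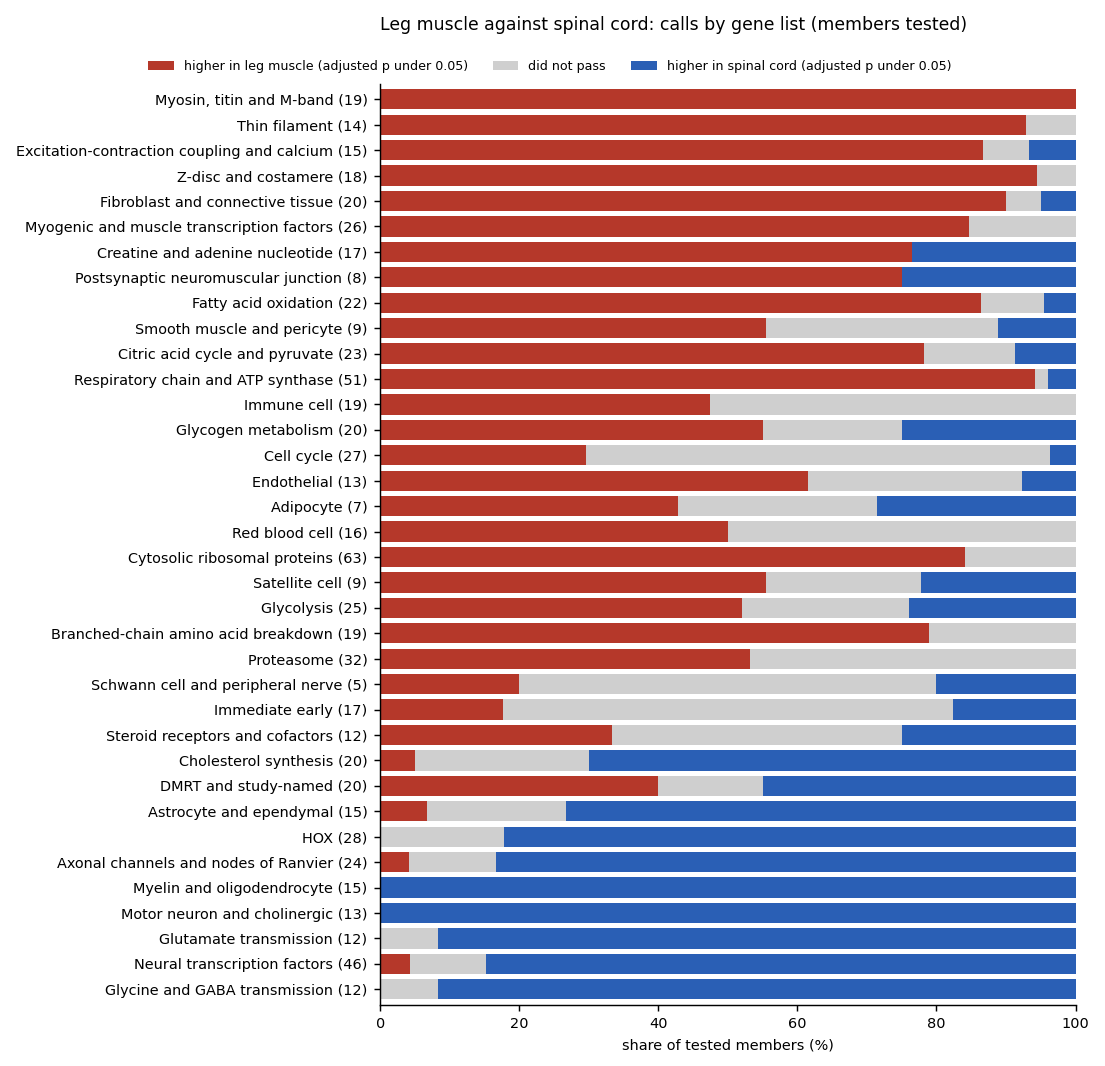
Share of the tested members of each gene list (number tested in brackets) that were higher in leg muscle (red), higher in spinal cord (blue) or did not pass an adjusted p of 0.05 (grey), ordered by the list's median Log2FC from 8.39 at the top to -7.08 at the bottom. All transcripts tested gave 25.7% and 29.9%.

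The transcripts with the smallest p among those whose groups did not overlap named few of the best known contractile genes. In leg muscle they were Serinc2, NMRK2, ZNF106, rbm24, DUSP27, PDLIM5, MYBPC2, atp1b4, MEF2C and tmem38a. DUSP27 (007761-RA), an inactive member of the dual-specificity phosphatases found in muscle, was at 690.3, 710.5, 489, 695 and 961 CPM in leg muscles 1 to 5 and 2.53, 1.34, 0.785 and 1.34 CPM in spinal cords 1 to 4. No spinal cord came near a leg muscle, and leg muscle 5 was the highest of the 5 (Log2FC = 8.89, SE 0.46, adjusted p = 1.0e-07). NMRK2 (017285-RA), a kinase that makes the NAD precursor nicotinamide mononucleotide, was at 119, 146, 82.8, 113 and 118 CPM in leg muscles 1 to 5 and 0.765, 0.936, 0.756 and 1.28 CPM in spinal cords 1 to 4 (Log2FC = 6.94, SE 0.33, adjusted p = 7.4e-08). Lack of overlap and a small p picked these transcripts in both directions, so neither is a result of its own. The splicing regulator rbm24 of muscle was at 148 to 274 CPM in the leg muscles and 3.17 to 4.71 CPM in the spinal cords (Log2FC = 5.85, SE 0.28). ZNF106, a zinc finger protein that binds RNA, was at 221 to 444 and 2.95 to 4.1 CPM (Log2FC = 6.59, SE 0.31), and Serinc2, a membrane protein of the serine incorporator family, at 80.0 to 121 and 2.4 to 3.44 CPM (Log2FC = 5.06, SE 0.24). The intracellular cation channel tmem38a of the sarcoplasmic reticulum was at 367 to 975 and 8.34 to 11.8 CPM (Log2FC = 6.14, SE 0.35). The adjusted p of these 10 ran from 7.4e-08 to 1.4e-07.

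In spinal cord the 10 included MMP24, SULT4A1, PCP4L1, sbk1, JPH4, Rusc1, Olig1, SLC1A3 and map6. MMP24 (011388-RA), a membrane-bound metalloproteinase of neurons, was at 1.14, 0.954, 0.914, 1.06 and 0.926 CPM in leg muscles 1 to 5 and 46.8, 49.7, 42.8 and 40.2 CPM in spinal cords 1 to 4. The spinal cords lay close together and far above every leg muscle (Log2FC = -5.48, SE 0.20, adjusted p = 3.7e-08). JPH4, a junctophilin that ties the endoplasmic reticulum to the membrane of neurons, had 1 read in all leg muscles together and was at 27.5 to 40.9 CPM in the spinal cords (3198 times, 95% counting interval 574 to 126302). Olig1, a transcription factor of oligodendrocytes, likewise had 1 read in the leg muscles and 27.2 to 38.2 CPM in the spinal cords (2881 times, 95% counting interval 517 to 113783). Both ratios are wide because of the single read. The kinase sbk1 was at 0.318 to 0.913 and 215 to 285 CPM (Log2FC = -8.48, SE 0.33) and PCP4L1 at 0.127 to 0.304 and 60.8 to 107 CPM (Log2FC = -8.61, SE 0.32). Adjusted p in this set lay between 3.7e-08 and 7.4e-08.

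Contractile genes were higher in leg muscle nearly without exception, and the fast and slow forms differed in how they varied among the leg muscles. The median Log2FC was 8.39 for the myosin list, 8.05 for the thin filament and 7.70 for the Z-disc, against -0.10 over all transcripts. TTN was at 61541, 67201, 42471, 65727 and 34786 CPM in leg muscles 1 to 5 and 116, 28.5, 9.19 and 1.09 CPM in spinal cords 1 to 4 (Log2FC = 10.46, SE 1.43, adjusted p = 7.7e-05). Spinal cords 1 and 2 held the highest levels of their tissue here and in most sarcomere genes. Without spinal cord 1 the 3 medians were 9.43, 8.70 and 8.46, without both libraries of lane 2 they were 9.97, 9.15 and 8.63, and the part of these libraries in the levels was not tested.

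Fast troponin I, Tnni2 (009051-RA), which holds the thin filament off at rest in fast fibers, was at 45121, 45942, 35608, 45143 and 10949 CPM in leg muscles 1 to 5 and 185, 198, 27 and 4.09 CPM in spinal cords 1 to 4. Leg muscle 5 had the lowest level of the 5, and no spinal cord came close (Log2FC = 8.46, SE 1.44, adjusted p = 0.00039). The fast myosin light chains MYLPF (45989 to 134395 CPM in the leg muscles) and MYL1 (14529 to 56937 CPM) and the fast Z-disc protein Actn3 (6779 to 31505 CPM) were also lowest in leg muscle 5, with Log2FC of 8.39, 8.72 and 9.63 (adjusted p = 0.00036, 0.000202 and 2.3e-05). The slow forms followed another order. Slow troponin I, Tnni1 (017582-RA), was at 102, 447, 166, 525 and 312 CPM in leg muscles 1 to 5 and 13.4, 3.92, 0.581 and 1.15 CPM in spinal cords 1 to 4 (Log2FC = 6.03, SE 1.12, adjusted p = 0.00074). The slow and cardiac myosin light chain MYL2 (002357-RA) was at 4.41, 27, 3.47, 23.8 and 23.5 CPM in leg muscles 1 to 5 and 0.344, 0.178, 0.378 and 0 CPM in spinal cords 1 to 4 (Log2FC = 6.16, SE 1.07, adjusted p = 0.00047). Leg muscles 2, 4 and 5 held the higher levels of both genes and leg muscles 1 and 3 the lower ones. The slow tropomyosin TPM3 showed the same split, at 139.8, 379, 153, 459 and 286 CPM in leg muscles 1 to 5 and 7.85 to 27.2 CPM in the spinal cords (Log2FC = 4.15, SE 0.51), while MYBPC1, the slow form of myosin-binding protein C, was at 161, 196, 178, 646 and 401 CPM with leg muscles 4 and 5 highest (Log2FC = 4.15, SE 0.63).

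Of 15 genes that couple excitation to contraction or move calcium in the fiber, leg muscle had 13 higher and spinal cord 1. The voltage sensor of the T-tubule, the L-type calcium channel alpha-1S (013121-RA), was at 776, 1300.5, 559.8, 774 and 305 CPM in leg muscles 1 to 5 and 5.13, 2.63, 1.1 and 0.479 CPM in spinal cords 1 to 4. Leg muscle 2 was the highest and leg muscle 5 the lowest, all above the spinal cords (Log2FC = 8.32, SE 0.82, adjusted p = 5.7e-06). Calsequestrin-1 (017208-RA), the calcium store protein of the sarcoplasmic reticulum, was at 3551 to 9489.8 CPM in the leg muscles and 0 to 20.7 CPM in the spinal cords (Log2FC = 9.37, SE 1.63, adjusted p = 0.00047). Sln, the small peptide sarcolipin that restrains the calcium pump, was at 739.5 to 1992 and 0 to 11 CPM (Log2FC = 7.92, SE 1.38, adjusted p = 0.00046). Parvalbumin beta (004549-RA), the soluble calcium buffer of fast-relaxing fibers, was at 29725 to 87037 CPM in leg muscle and 21 to 559 CPM in spinal cord (Log2FC = 7.97, SE 1.37, adjusted p = 0.00044). All 4 were higher in every leg muscle than in any spinal cord. Calcium channels of neurons went the other way. The pore subunit CACNA1E of R-type channels took no reads in any leg muscle and was at 1.72, 1.92, 2.59 and 3.16 CPM in the spinal cords (at least 72-fold higher in spinal cord, with 3 reads over the 5 leg muscles as the floor), and CACNA1A of P/Q-type channels was at 0.511 to 3.79 CPM in spinal cord with 2 reads in the leg muscles (106 times, 95% counting interval 29 to 878).

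Subunits of the acetylcholine receptor split fully between the tissues, with 3 of the 11 tested higher in leg muscle and 8 in spinal cord. Muscle receptors are built from alpha-1, beta-1, delta and epsilon subunits, and neuronal receptors from other alpha and beta subunits. The muscle alpha-1 subunit chrna1-a (019091-RA) was at 25.6, 34, 28.5, 38.1 and 18.2 CPM in leg muscles 1 to 5 and took no reads in any spinal cord, at least 1101-fold higher in leg muscle with 3 reads over the 4 spinal cords as the floor. The adult epsilon subunit chrne (005036-RB) was at 154, 38.7, 74.8, 95.9 and 12.7 CPM in leg muscles 1 to 5 and 0.191, 0.178, 0 and 0 CPM in spinal cords 1 to 4 (Log2FC = 9.74, SE 1.09, adjusted p = 1.6e-05). The groups did not overlap, and leg muscle 5 was again the lowest of its tissue. Leg muscle 1 was the highest for chrne and for the beta-1 subunit chrnb1, which was at 22.5 to 96.2 CPM in leg muscle and 0.115 to 1.09 CPM in spinal cord (Log2FC = 6.72, SE 0.68). The fetal gamma subunit chrng was below the filter and untested, at 0.254 to 0.731 CPM in leg muscle and 0 in spinal cord. RAPSN, which clusters the receptor under the nerve ending, was at 4.97 to 14 and 0.268 to 1.51 CPM (Log2FC = 3.56, SE 0.59, adjusted p = 0.00033).

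The 8 tested subunits of neuronal receptors were all on the spinal cord side. The delta subunit was not analysed here. CHRNA7 (011959-RA), which forms receptors of a single kind of subunit, took no reads in the leg muscles and was at 24.1, 14.2, 19.2 and 16.4 CPM in spinal cords 1 to 4, at least 571-fold higher. CHRNA4 was at 0 to 1.47 CPM in leg muscle and 80.3 to 112 CPM in spinal cord (Log2FC = -7.09, SE 0.69), and its partner Chrnb2 at 0.488 to 2.57 and 75.1 to 105 CPM (Log2FC = -5.97, SE 0.40). Acetylcholinesterase, ACHE (011595-RA), which ends the signal, was at 52.4, 56.1, 71.3, 70.4 and 44.7 CPM in leg muscles 1 to 5 and 378, 710.2, 490.5 and 272 CPM in spinal cords 1 to 4. It was lower in every leg muscle than in any spinal cord (Log2FC = -2.97, SE 0.30, adjusted p = 7.3e-06). The agrin receptor LRP4 was also lower in leg muscle, at 31.1, 18.3, 34.5, 59.5 and 134 CPM against 142, 231, 319 and 298 CPM (Log2FC = -2.16, SE 0.51, adjusted p = 0.0037).

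Transcripts of the neurons that face the muscle were at or near 0 in the leg muscles. CHAT, the enzyme that makes acetylcholine, was at 0 in leg muscles 1 to 4 and 0.295 CPM in leg muscle 5, and at 14, 3.88, 5.23 and 2.27 CPM in spinal cords 1 to 4 (Log2FC = -6.41, SE 1.01, adjusted p = 0.00023). Spinal cord 1 was the highest. The motor neuron transcription factor Mnx1 was at 6.12, 5.08, 2.97 and 2.75 CPM in the spinal cords and at most 0.168 CPM in a leg muscle (Log2FC = -6.53, SE 0.90, adjusted p = 0.00012). The peptide gene CALCA, which motor and sensory neurons use, was at 53.6 to 165 CPM in spinal cord and 0.427 to 1.9 CPM in leg muscle (Log2FC = -6.80, SE 0.53, adjusted p = 1.0e-06), higher in spinal cords 1 and 2. The intermediate filament prph of motor and sensory neurons was at 836 to 1398 CPM and 0 to 0.379 CPM (Log2FC = -13.13, SE 0.77, adjusted p = 1.6e-07). None of these genes overlapped between the tissues. The median Log2FC of the 13 genes was -6.52.

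Inhibitory and excitatory transmission genes were higher in spinal cord with 1 exception in each list that did not pass. The glycine transporter slc6a9 (010210-RA), which clears glycine around inhibitory synapses, was at 0.685, 0.763, 0.853, 0.804 and 0.926 CPM in leg muscles 1 to 5 and 76.7, 198, 188 and 69.4 CPM in spinal cords 1 to 4. Spinal cords 2 and 3 were above spinal cords 1 and 4, and all were above the leg muscles (Log2FC = -7.35, SE 0.41, adjusted p = 1.2e-07). GAD1, which makes GABA from glutamate, was at 25.1 to 43.5 CPM in spinal cord and 0 to 0.304 CPM in leg muscle (Log2FC = -8.51, SE 0.63, adjusted p = 6.9e-07). The vesicular glutamate transporter slc17a7 was at 84.8 to 97.6 CPM in spinal cord and at 0 in leg muscles 2 to 4, with 0.685 CPM in leg muscle 1 and 0.253 CPM in leg muscle 5 (Log2FC = -9.02, SE 0.83, adjusted p = 3.3e-06). ABAT, the enzyme that breaks down GABA and is also used outside the nervous system, was at 45.9 to 105 CPM in leg muscle and 79.3 to 102 CPM in spinal cord (Log2FC = -0.26, SE 0.25, adjusted p = 0.39). The median Log2FC was -7.08 for glycine and GABA and -6.91 for glutamate, or -6.26 and -5.74 with members without reads in leg muscle at their bound.

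Of 24 axonal channel and node of Ranvier genes, 20 were higher in spinal cord and 1 in leg muscle. The nodal sodium channel SCN8A (011111-RA) was at 4.11, 2.73, 3.23, 4.74 and 4.29 CPM in leg muscles 1 to 5 and 234, 88.1, 173 and 149.6 CPM in spinal cords 1 to 4, with no overlap (Log2FC = -5.40, SE 0.32, adjusted p = 1.7e-07). CNTNAP1, which fastens myelin beside the node, was at 32.1 to 81.9 CPM in spinal cord and had 0 reads in leg muscles 1 to 3 (Log2FC = -9.30, SE 0.75, adjusted p = 1.2e-06). The anchor protein Ank3 (147 to 257 and 141 to 329 CPM) overlapped between the tissues and did not pass (adjusted p = 0.15).

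Related genes with the same enzymatic or structural role were often split between the tissues. The families were chosen for having members known from muscle and from nervous tissue. This choice favors a split, so the counts are no test of one. Of 27 gene families with at least 2 tested members, 14 had members higher in each tissue, 7 had calls in leg muscle alone and 5 in spinal cord alone. Of the 97 tested members of all families, 37 were higher in leg muscle and 46 in spinal cord, beside 25.7% and 29.9% of all transcripts. Glycolysis showed such a split at 3 steps. ALDOA (013952-RA), the aldolase of muscle, was at 205577, 219227, 144815, 220149 and 103876 CPM in leg muscles 1 to 5 and 1909, 2661, 1512 and 1271 CPM in spinal cords 1 to 4 (Log2FC = 6.60, SE 0.66, adjusted p = 6.8e-06). ALDOC (007673-RA), the aldolase of brain, was at 22.8, 13.4, 22.8, 10.2 and 23.3 CPM in leg muscles 1 to 5 and 4709, 5283, 3229 and 3566 CPM in spinal cords 1 to 4 (Log2FC = -7.83, SE 0.42, adjusted p = 1.1e-07). Each form was higher in all libraries of its own tissue than in any of the other. For phosphofructokinase, the rate-setting step, PFKM was at 10562 to 25197 CPM in leg muscle and 166 to 243 CPM in spinal cord (Log2FC = 6.31, SE 0.44, adjusted p = 5.0e-07), and PFKP at 2.82 to 6.32 and 159 to 262 CPM (Log2FC = -5.46, SE 0.32, adjusted p = 1.4e-07). For enolase, ENO3 was at 15522 to 50048 and 1.66 to 113 CPM (Log2FC = 9.22, SE 1.49, adjusted p = 0.00027) and eno1 at 529 to 829.8 and 2871 to 4563 CPM (Log2FC = -2.66, SE 0.28, adjusted p = 9.8e-06). The spinal cord levels of ENO3 ran with those of the sarcomere genes, highest in spinal cords 1 and 2 at 113, 112, 19.6 and 1.66 CPM for spinal cords 1 to 4.

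**Figure D3:**
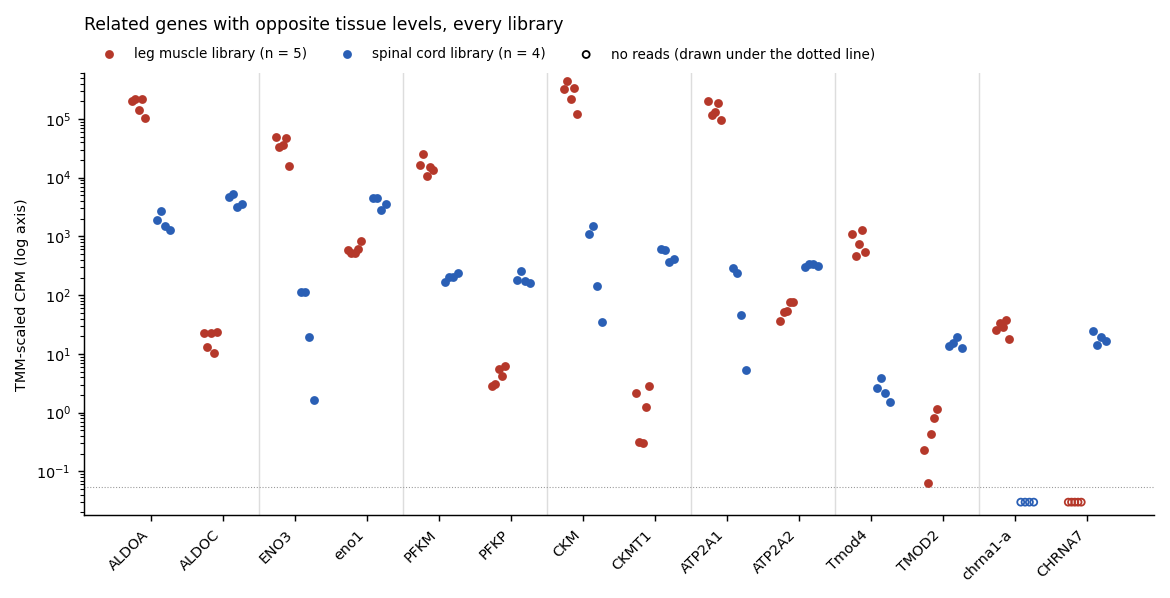
TMM-scaled CPM (log axis) of 7 pairs of related genes in each of the 5 leg muscle (red) and 4 spinal cord (blue) libraries, with open circles under the dotted line for libraries without reads. The left gene of each pair was higher in every leg muscle and the right gene in every spinal cord, for example ALDOC with 3229 to 5283 CPM in spinal cord and 10.2 to 23.3 CPM in leg muscle.

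Other pairs divided in the same way. Mitochondrial creatine kinase CKMT1 (015079-RA), which charges creatine at the mitochondrion, was at 2.13, 0.318, 0.305, 1.27 and 2.86 CPM in leg muscles 1 to 5 and 602, 586, 372 and 408 CPM in spinal cords 1 to 4 (Log2FC = -8.46, SE 0.68, adjusted p = 1.2e-06), opposite to CKM. No other creatine kinase was among the tested members of this family, so any other mitochondrial form in leg muscle is not covered. The calcium pump ATP2A1 of fast fibers was at 96768 to 201838 CPM in leg muscle and 5.27 to 294 CPM in spinal cord (Log2FC = 9.97, SE 1.51, adjusted p = 0.00016), and the widely used ATP2A2 at 36.9, 51.8, 54, 75.6 and 77.1 CPM in leg muscles 1 to 5 and 298, 344, 341 and 311 CPM in the spinal cords (Log2FC = -2.45, SE 0.25, adjusted p = 8.1e-06). In both pairs no leg muscle overlapped a spinal cord. The thin filament cap Tmod4 was at 473 to 1288 and 1.53 to 3.83 CPM (Log2FC = 8.37, SE 0.55, adjusted p = 3.2e-07), and its neuronal relative TMOD2 at 0.0636 to 1.14 and 12.8 to 19.7 CPM (Log2FC = -4.79, SE 0.56, adjusted p = 2.1e-05). AMP deaminase AMPD1, which removes AMP during hard work, was at 26.6 to 282 and 0 to 0.153 CPM (Log2FC = 11.09, SE 0.97, adjusted p = 2.3e-06), with leg muscle 5 the lowest of the leg muscles. AMPD2 was at 0.837 to 2.54 and 3.9 to 12 CPM (Log2FC = -2.38, SE 0.46, adjusted p = 0.0011). The adenine nucleotide carriers of the mitochondrion split too, with Slc25a4 at 3944 to 13956 and 4.31 to 50.9 CPM (Log2FC = 8.46, SE 1.00, adjusted p = 2.4e-05) and Slc25a5 at 359 to 1009.7 and 1074 to 1707 CPM (Log2FC = -1.39, SE 0.32, adjusted p = 0.0029). The neuronal RNA-binding protein celf5 (0.0847 to 0.318 and 18.1 to 27.8 CPM, Log2FC = -6.93, adjusted p = 1.0e-07) and the kinase CAMK2B (0.122 to 0.716 and 102 to 134 CPM, Log2FC = -8.21, adjusted p = 7.7e-08) had no tested partner on the muscle side.

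Energy metabolism leaned to leg muscle in most lists. Of 17 genes of creatine and adenine nucleotide metabolism, which keep ATP up during a burst of work, 13 were higher in leg muscle and 4 in spinal cord, at a median Log2FC of 2.99. Glycolysis had 13 and 6 of 25, with 6 that did not pass, and its median Log2FC of 1.09 became -0.83 with library totals alone. Over all transcripts the shares were 25.7% and 29.9%, so the spinal cord counts of both lists are near that share. Lactate dehydrogenase Ldha (007402-RA) was at 9545, 5376, 4934, 9404 and 3302 CPM in leg muscles 1 to 5 and 647, 880.3, 548 and 618 CPM in spinal cords 1 to 4 (Log2FC = 3.27, SE 0.41, adjusted p = 3.4e-05). The glucose transporter SLC2A4, which insulin and contraction bring to the fiber surface, was at 235 to 682 CPM in leg muscle and 6.51 to 17.4 CPM in spinal cord (Log2FC = 5.44, SE 0.52, adjusted p = 4.7e-06). SLC2A1, the transporter of the brain barrier, was at 384, 30.01, 37.5, 58.7 and 19.7 CPM in leg muscles 1 to 5 and 45 to 71.7 CPM in the spinal cords and did not pass (Log2FC = 0.90, adjusted p = 0.35). Leg muscle 1 alone was above all spinal cords. The glycerol-3-phosphate dehydrogenase Gpd1 was higher in spinal cord, at 38.3 to 81.4 CPM against 2.44 to 10.8 CPM (Log2FC = -3.20, SE 0.42, adjusted p = 4.9e-05).

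Glycogen genes had 11 of 20 members higher in leg muscle and 5 in spinal cord, beside 25.7% and 29.9% of all transcripts. The spinal cord count is thus near the share over all transcripts. The median Log2FC of 1.46 became -0.26 with library totals alone. The glycogen-targeting subunit ppp1r3c (013877-RA), which brings phosphatase 1 to glycogen, was at 273, 297, 257, 349.6 and 69.7 CPM in leg muscles 1 to 5 and 2.91, 2.68, 4.39 and 6.71 CPM in spinal cords 1 to 4. Leg muscle 5 was the lowest of its tissue, and the groups did not overlap (Log2FC = 5.90, SE 0.53, adjusted p = 2.9e-06). Glycogen synthase Gys1 was at 680.1 to 2292 CPM in leg muscle and 81.6 to 96.6 CPM in spinal cord (Log2FC = 3.91, SE 0.36, adjusted p = 3.7e-06). PYGB, the brain form of glycogen phosphorylase, was at 20.5 to 38.5 and 1077 to 1561 CPM (Log2FC = -5.36, SE 0.30, adjusted p = 1.2e-07). Ppp1r3e, another targeting subunit, was at 0.254 to 0.67 and 10.3 to 12.1 CPM (Log2FC = -4.64, SE 0.32, adjusted p = 4.3e-07).

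Oxidative metabolism was higher in leg muscle for most members. Of 51 subunits of the respiratory chain and ATP synthase, 48 were higher in leg muscle and 2 in spinal cord, at a median Log2FC of 1.86. Of 23 genes of the citric acid cycle and pyruvate, 18 were higher in leg muscle and 2 in spinal cord (median 1.91), and of 22 fatty acid oxidation genes 19 and 1 (median 2.29). With library totals alone the first 2 medians became -0.12 and -0.06, and fatty acid oxidation kept its direction at 0.36. Branched-chain amino acid breakdown had 15 of 19 members higher in leg muscle and none in spinal cord (median 1.08, or -0.85 with library totals alone).

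**Figure D4:**
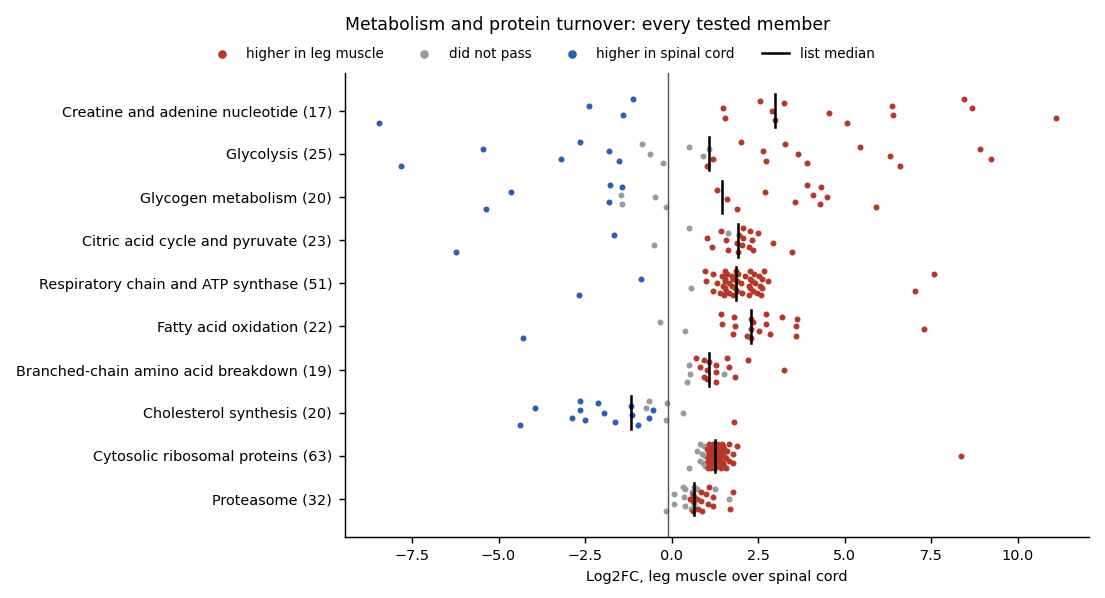
Log2FC (leg muscle over spinal cord) of every tested member of 10 lists, 1 point each, with the list median as a black bar and the median of all transcripts (-0.10) as a vertical line. Creatine and glycolysis members spread from -8.46 to 11.09 on both sides, while 46 of 51 respiratory chain members lay within 1 of their median of 1.86, in a full range of -2.67 to 7.57, and all ribosomal proteins but 1 lay below 2.

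Mitochondrial isocitrate dehydrogenase IDH2 (012814-RA) led the citric acid cycle list at 8922, 6183, 5104, 6689 and 1924 CPM in leg muscles 1 to 5 and 476, 582, 474 and 545 CPM in spinal cords 1 to 4. Leg muscle 5 was the lowest leg muscle and still above the spinal cords (Log2FC = 3.47, SE 0.44, adjusted p = 4.0e-05). The neural oxoglutarate dehydrogenase form ogdhl was higher in spinal cord, at 9.68 to 21.6 CPM against 0.061 to 0.505 CPM (Log2FC = -6.22, SE 0.51, adjusted p = 1.4e-06). Cpt1b, the muscle carnitine palmitoyltransferase that admits fatty acids to the mitochondrion, was at 115 to 186 CPM in leg muscle and 0.349 to 1.45 CPM in spinal cord (Log2FC = 7.29, SE 0.68, adjusted p = 3.7e-06), while CPT1A ranged over 9.09 to 38.4 and 20.6 to 40.4 CPM and did not pass (adjusted p = 0.45). The muscle form of this enzyme thus differed between the tissues and the widely used form overlapped. Hadha, of the mitochondrial trifunctional protein, was at 1236 to 2158 and 114 to 172 CPM (Log2FC = 3.59, SE 0.28, adjusted p = 9.7e-07). Acsl6, an acyl-CoA synthetase of brain, was at 3.5 to 6.39 and 69.4 to 101 CPM (Log2FC = -4.29, SE 0.25, adjusted p = 1.4e-07). Among cytochrome oxidase subunits, COX6A1 was at 267 to 509 CPM in spinal cord and 41.2 to 97.3 CPM in leg muscle (Log2FC = -2.67, SE 0.33, adjusted p = 3.5e-05), and a transcript annotated Cox7a2 (011211-RA) at 36 to 202 CPM in leg muscle and 0.256 to 2.1 CPM in spinal cord (Log2FC = 7.04, SE 0.89, adjusted p = 3.9e-05).

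Cholesterol synthesis was the metabolic list with most members on the spinal cord side, 14 of 20, with 1 in leg muscle. CYP51A1 (005998-RA), which demethylates lanosterol, was at 13, 18.6, 20.3, 22.2 and 37.3 CPM in leg muscles 1 to 5 and 117, 145, 186 and 115 CPM in spinal cords 1 to 4. The groups did not overlap (Log2FC = -2.66, SE 0.30, adjusted p = 1.5e-05). The epoxidase SQLE was at 0.254 to 5.01 CPM in leg muscle and 11.2 to 49.5 CPM in spinal cord (Log2FC = -3.94, SE 0.83, adjusted p = 0.0017). HMGCS1 (40.3 to 85.7 and 46.6 to 147 CPM) and FDFT1 (20.3 to 38.2 and 19.2 to 44.6 CPM) did not pass (adjusted p = 0.16 and 0.71). The call of LBR, the only member higher in leg muscle (Log2FC = 1.81, SE 0.60, adjusted p = 0.023), was lost without leg muscle 4, spinal cord 1 or the lane 2 libraries, and its Log2FC turned to -0.081 with library totals alone.

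Transcripts of protein synthesis were higher in leg muscle by a small and even margin. Of 63 cytosolic ribosomal proteins tested, 53 were higher in leg muscle and none in spinal cord, at a median Log2FC of 1.25. This direction depended on scaling, with a median of -0.66 and 28 members higher in spinal cord with library totals alone. Without the lane 2 libraries, which are 2 of the 4 spinal cords, the count was 16 and the median 1.27. A transcript annotated Rpl3 (001317-RA) stood off from the rest at 4243, 8037, 2629, 3563 and 2869 CPM in leg muscles 1 to 5 and 25.6, 22.8, 2.56 and 1.34 CPM in spinal cords 1 to 4 (Log2FC = 8.35, SE 1.14, adjusted p = 7.3e-05). Its level was highest in leg muscle 2, and in the spinal cords it was highest in libraries 1 and 2. The other RPL3 transcript (007148-RA) was at 1293 to 2213 CPM in leg muscle and 805 to 1488 CPM in spinal cord and did not pass (Log2FC = 0.64, adjusted p = 0.075), though it did without spinal cord 4 (Log2FC = 0.85, adjusted p = 0.029). Of 32 proteasome subunits 17 were higher in leg muscle and none in spinal cord, at a median Log2FC of 0.64, which became -1.16 with library totals alone. That count was 11 without leg muscle 2 and 10 without spinal cord 3 or without the lane 2 libraries. The median without the lane 2 libraries was 0.89.

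Transcription factors separated the tissues in both directions. Of 26 myogenic and muscle factors, 22 were higher in leg muscle and none in spinal cord. MYOD1 (017782-RA), which commits cells to muscle, was at 9.59, 125, 22.5, 38.5 and 59.9 CPM in leg muscles 1 to 5 and 0.344, 0.268, 0.0291 and 0 CPM in spinal cords 1 to 4. Leg muscle 2 was the highest and leg muscle 1 the lowest, with no overlap (Log2FC = 8.38, SE 1.08, adjusted p = 4.8e-05). Six2, a homeobox factor of muscle and other mesoderm, was at 80.4 to 158 CPM in leg muscle and 0.0383 to 0.535 CPM in spinal cord (Log2FC = 9.09, SE 0.64, adjusted p = 4.8e-07). MYOG, which drives fusion into fibers, was at 7.92, 12, 7.92, 6.82 and 4.00 CPM in leg muscles 1 to 5 and had 3 reads in the spinal cords, all in library 1 (295 times, 95% counting interval 101 to 1428). MEF2C was at 269 to 757 and 4.56 to 5.93 CPM (Log2FC = 6.72, SE 0.38). These factors were near 0 in all spinal cords, MEF2C excepted. The hindlimb factor pitx1 was at 0.989, 4.07, 2.07, 5.93 and 7.71 CPM in leg muscles 1 to 5, with 3 reads in the spinal cords (158 times, 95% counting interval 54 to 767). The satellite cell factor PAX7 was low in both, at 0.382 to 1.44 and 0 to 0.32 CPM (Log2FC = 2.17, SE 0.72, adjusted p = 0.023), and did not pass without leg muscle 4 (adjusted p = 0.056) or without the lane 2 libraries (adjusted p = 0.069).

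Of 46 neural factors, 39 were higher in spinal cord and 2 in leg muscle, at a median Log2FC of -7.04 (-6.82 with members without leg muscle reads at their bound). Otp, a homeobox factor, had 1 read in the leg muscles and was at 30.4, 58.9, 53.2 and 30.1 CPM in spinal cords 1 to 4 (4000 times, 95% counting interval 718 to 157993). NEUROD1, which turns progenitors into neurons, took no reads in leg muscle and was at 11.6, 8.52, 7.18 and 8.72 CPM in spinal cords 1 to 4, at least 278-fold higher. PRDM8 was at 59.6 to 77.3 CPM with 2 reads in leg muscle (3305 times, 95% counting interval 915 to 27287). All 3 were close to absent from leg muscle. lhx1, a factor of spinal interneurons and motor columns, was at 73.4 to 82 CPM in spinal cord and 0 to 0.152 CPM in leg muscle (Log2FC = -10.60, SE 0.61, adjusted p = 1.4e-07). The neural stem cell factor sox2 was at 61.7, 97.2, 103 and 147 CPM in spinal cords 1 to 4 and 0.457 to 0.926 CPM in leg muscle (Log2FC = -7.33, SE 0.36, adjusted p = 8.7e-08). The 2 factors higher in leg muscle were both nuclear factor I genes, Nfia at 13.5, 11.1, 16.6, 15.9 and 7.54 CPM against 3.1, 2.94, 4.65 and 2.49 CPM (Log2FC = 1.97, SE 0.38, adjusted p = 0.00093) and NFIB at 12 to 19.6 against 3.51 to 10.8 CPM (Log2FC = 1.39, SE 0.33, adjusted p = 0.00397). The direction of NFIB turned with library totals alone, and without the lane 2 libraries it did not pass (adjusted p = 0.063).

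HOX genes, which mark position along the body axis, were higher in spinal cord or did not pass. Of 28 tested, 23 were higher in spinal cord and none in leg muscle, at a median Log2FC of -4.22. Hoxb8 (005269-RA) had 3 reads in the leg muscles and was at 22.9, 52, 74.3 and 93.3 CPM in spinal cords 1 to 4 (1873 times, 95% counting interval 641 to 9082). HOXD11 took no reads in the leg muscles and was at 0.383, 14.9, 21.8 and 21.1 CPM in the spinal cords, at least 449-fold higher. Some genes of the posterior HOXA and HOXC clusters were present in both tissues. Hoxc10 (002813-RA) was at 62.6, 136, 78.9, 107 and 58.1 CPM in leg muscles 1 to 5 and 10.3, 109, 240.4 and 188 CPM in spinal cords 1 to 4. The groups overlapped and the gene did not pass (Log2FC = -0.63, SE 0.61, adjusted p = 0.399). Hoxc12 was at 12.9, 15.6, 13.4, 20.1 and 12.5 CPM in leg muscles 1 to 5 and 0.153, 4.19, 16.7 and 11.3 CPM in spinal cords 1 to 4 (Log2FC = 0.88, SE 0.79, adjusted p = 0.36). HOXA11 was at 2.59, 8.71, 6.16, 5.5 and 6.02 CPM and 0.651, 12.7, 17.2 and 17.7 CPM (Log2FC = -1.05, SE 0.69, adjusted p = 0.21). Without spinal cord 1, which was the lowest for all 3, Hoxc10 and HOXA11 were higher in spinal cord (Log2FC = -0.96, adjusted p = 0.037 and Log2FC = -1.4, adjusted p = 0.019).

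The spinal cords differed among themselves in HOX level, and the order changed with the gene number, as the plot of HOX genes shows. Spinal cord 1 was the lowest of the 4 for 10 of the 11 genes numbered 9 to 13, was the lowest for 3 and the highest for 2 of the 5 genes numbered 7 and 8, and was the highest for 8 and the lowest for 0 of the 12 genes numbered 1 to 6. These ranges were set after the values were seen. Posterior genes with this order included Hoxc10 and HOXD11 above, HOXD10 (3.67, 42.4, 66.7 and 62.8 CPM in spinal cords 1 to 4) and Hoxb9 (13, 32.9, 54.8 and 60.4 CPM). Of the low-numbered genes, Hoxc5 (002809-RA) was at 189, 83.1, 1.45 and 15.7 CPM in spinal cords 1 to 4, hoxc6 at 76.1, 42, 7.85 and 21.2 CPM and HOXD4 at 28.6, 16.7, 7.38 and 6.97 CPM. Spinal cord 2 was second in each of these 3 and second lowest in Hoxc10, HOXD10, HOXD11 and Hoxb9. Against leg muscle, Hoxc5 (Log2FC = -9.40, adjusted p = 0.00031) and HOXD10 (Log2FC = -9.82, adjusted p = 1.1e-05) were higher in spinal cord at either end of this order. Spinal cord 1 is also the library with liver and pancreas transcripts, and their part in the HOX order was not tested.

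**Figure D5:**
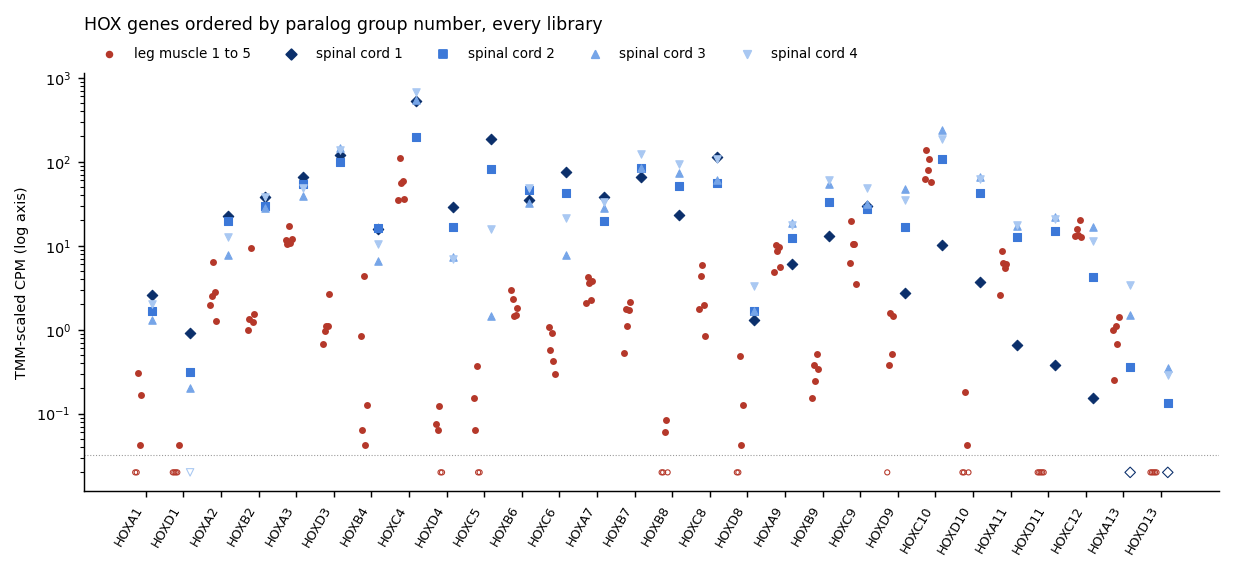
TMM-scaled CPM (log axis) of the 28 tested HOX genes in each leg muscle (red dots) and spinal cord (blue symbols) library, ordered by gene number from left to right, with open symbols under the dotted line for libraries without reads. Spinal cord 1 (dark diamonds) was the highest for Hoxc5 at 189 CPM and the lowest for Hoxc10 at 10.3 CPM, against 58.1 to 136 CPM of Hoxc10 in the leg muscles.

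Genes of other cell types were found in both tissues, more of them higher in leg muscle. Of 20 fibroblast and connective tissue genes, 18 were higher in leg muscle and 1 in spinal cord, at a median Log2FC of 4.70. The proteoglycan DCN of collagen fibrils was at 38.5, 44.8, 49.4, 94.1 and 266 CPM in leg muscles 1 to 5 and 0.344, 0.178, 0.174 and 0.351 CPM in spinal cords 1 to 4. All leg muscles were above all spinal cords, and leg muscle 5 was the highest (Log2FC = 8.52, SE 0.82, adjusted p = 4.6e-06). Collagen COL1A2 was at 116, 161, 172, 1516 and 17716 CPM in leg muscles 1 to 5 and 10.7 to 135 CPM in spinal cord (Log2FC = 6.12, SE 1.74, adjusted p = 0.011), the groups overlapping. Without leg muscle 5 its Log2FC was 3.13, and without the lane 2 libraries it did not pass (adjusted p = 0.096). Cartilage and bone transcripts were highest in the same leg muscles 5 and 4. With these 2 libraries left out, which like leaving out leg muscles 1 to 3 is a setting chosen after seeing the data, the fibroblast list had 15 members higher in leg muscle and a median of 2.64. Thrombospondin thbs4 of tendon and muscle did not share this spread, at 413 to 571 CPM in leg muscle and 1.54 to 4.82 CPM in spinal cord (Log2FC = 7.06, SE 0.42, adjusted p = 1.8e-07).

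The skin and skeletal lists rested on few libraries. Of 31 epidermis genes, 16 were higher in leg muscle and 1 in spinal cord, but with leg muscles 1 to 3 left out it was 2 and 7. Keratin KRT1 (009662-RA) was at 11721, 1616, 53189, 1.27 and 46.3 CPM in leg muscles 1 to 5 and 7.23, 7.27, 2.85 and 0 CPM in spinal cords 1 to 4. The groups overlapped, since leg muscle 4 was below 3 of the spinal cords and leg muscle 5 far below leg muscles 1 to 3 (Log2FC = 11.59, SE 2.96, adjusted p = 0.00595). Of 23 cartilage and bone genes, 14 were higher in leg muscle and 1 in spinal cord, and with leg muscles 4 and 5 left out 6 and 3. The cartilage matrix protein MATN1 was at 7.23, 0.318, 0.305, 165 and 1065 CPM in leg muscles 1 to 5 and at most 0.192 CPM in a spinal cord (Log2FC = 11.54, SE 2.89, adjusted p = 0.0061). MATN1 did not pass without the lane 2 spinal cords (adjusted p = 0.065), and the counts higher in leg muscle were then 4 for epidermis and 5 for cartilage and bone. The counts higher in spinal cord, each 1, moved between 0 and 4 for epidermis and between 1 and 2 for cartilage and bone when single libraries were left out, with the highest values without spinal cord 1 and leg muscle 5.

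Liver and pancreas lists were higher in spinal cord for 15 of 20 and 14 of 17 genes. Serum albumin ALB took no reads in the leg muscles and was at 806, 0, 0.0872 and 1.5 CPM in spinal cords 1 to 4, so that nearly all of its reads came from spinal cord 1. Without spinal cord 1 the counts fell to 6 and 3, without spinal cord 4 to 11 and 9, and without the lane 2 libraries to 6 and 3. Of 7 pigment cell genes, 1 was higher in each tissue, and without leg muscle 3 the count in spinal cord was 5.

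Blood, vessel and immune genes leaned to leg muscle. Of 13 endothelial genes 8 were higher in leg muscle and 1 in spinal cord, of 19 immune cell genes 9 and 0, and of 16 red blood cell genes 8 and 0. These 3 medians, 1.36, 1.8 and 1.33, turned to -0.47, -0.0021 and -0.53 with library totals alone. Without the lane 2 spinal cords the endothelial and immune counts were 4 and 5, at medians of 1.09 and 1.49. The immune list summed to 288, 462, 494, 777 and 1194 CPM in leg muscles 1 to 5 and 179, 180, 164 and 604 CPM in spinal cords 1 to 4. Its count was 13 without spinal cord 4. Of its 19 genes, 4 were higher in every leg muscle than in any spinal cord, beside 20.6% of all transcripts. The macrophage receptor MRC1 was at 6.93, 8.39, 11.9, 8.3 and 12.4 CPM in leg muscles 1 to 5 and 1.61, 0.268, 0.523 and 0.32 CPM in spinal cords 1 to 4, without overlap (Log2FC = 3.81, SE 0.61, adjusted p = 0.00026). The spectrin SPTB, which lines the membrane of red blood cells and also of muscle fibers, was at 161 to 274 CPM in leg muscle and 0.624 to 4.78 CPM in spinal cord (Log2FC = 6.23, SE 0.56, adjusted p = 2.8e-06). Beta globin HBB, the most direct sign of blood, overlapped between the tissues at 4643, 9723, 3330.2, 7577 and 7007 CPM in leg muscles 1 to 5 and 4672, 1472, 924 and 2907 CPM in spinal cords 1 to 4 (Log2FC = 1.37, SE 0.53, adjusted p = 0.045). That call was lost without leg muscle 2, 4 or 5, without spinal cord 2, 3 or 4 and without the lane 2 libraries, with adjusted p between 0.051 and 0.096, and its Log2FC turned to -0.49 with library totals alone. The adipocyte hormone ADIPOQ was at 286, 441, 298, 259.5 and 141 CPM in leg muscles 1 to 5 and 0 to 2.45 CPM in the spinal cords (Log2FC = 8.19, SE 1.22, adjusted p = 0.00015). ADIPOQ had the highest Log2FC of the 7 adipocyte genes, of which 3 were higher in leg muscle and 2 in spinal cord. The lowest Log2FC on that list was -5.82. KCNJ8, a potassium channel of pericytes, was the only member of the smooth muscle and pericyte list higher in spinal cord, at 10.6 to 21.9 CPM in spinal cord and at most 0.127 CPM in leg muscle (Log2FC = -8.36, SE 0.62, adjusted p = 6.9e-07).

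Genes of dividing cells and of the early response to stimulation gave few calls that held in every setting. Of 27 cell cycle genes, 8 were higher in leg muscle and 1 in spinal cord, beside 25.7% and 29.9% of all transcripts. The leg muscle count is thus near the share over all transcripts. The count of 8 changed with single libraries, to 15 without leg muscle 2 and 5 without spinal cord 4. It was 4 without leg muscle 3, leg muscle 5 or spinal cord 1. Without the lane 2 libraries it was 0, at a median Log2FC of 1.12. The median Log2FC of 1.4 turned to -0.26 with library totals alone, which gave 0 members higher in leg muscle and 6 in spinal cord. TOP2A, which untangles replicated DNA, was at 10.7, 1.59, 44.1, 8.3 and 26.1 CPM in leg muscles 1 to 5 and 1.22 to 6.22 CPM in spinal cord (Log2FC = 2.58, SE 0.81, adjusted p = 0.017). It did not pass without the lane 2 libraries (adjusted p = 0.14). The high leg muscles, 3 and 5, are those with the most epidermal and the most skeletal transcripts, and the part of those tissues was not tested. Of 17 immediate early genes, which are switched on within minutes of stimulation, 3 were higher in each tissue. Library totals alone gave 0 in leg muscle and 9 in spinal cord, and the median turned from 0.22 to -1.71. Atf3 was at 13.4, 6.74, 11.9, 8.72 and 7.62 CPM in leg muscles 1 to 5 and 4.36, 2.05, 1.66 and 3.1 CPM in spinal cords 1 to 4 (Log2FC = 1.79, SE 0.35, adjusted p = 0.0011), and its Log2FC turned to -0.079 with library totals alone. Higher in spinal cord was nr4a2, which neurons of several kinds also use at rest, at 1.6 to 4.29 CPM in leg muscle and 21.2 to 30.9 CPM in spinal cord (Log2FC = -3.10, SE 0.32, adjusted p = 9.0e-06). The count in leg muscle was 1 without the lane 2 libraries, and that in spinal cord 5 without leg muscle 3.

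Of 12 genes of steroid receptors, their cofactors and steroid enzymes, 4 were higher in leg muscle and 3 in spinal cord. These counts are near the shares over all transcripts, 25.7% and 29.9%. Of 20 DMRT genes and other genes the study names, 8 were higher in leg muscle and 9 in spinal cord. The study named many of these from differences in the same libraries, so their counts are no test. With library totals alone the steroid counts were 0 and 7. The androgen receptor ar (006542-RA) was near the floor of detection in both tissues, at 0.228, 0.191, 0.366, 0.212 and 0.0421 CPM in leg muscles 1 to 5 and 0.306, 0.357, 0.291 and 0 CPM in spinal cords 1 to 4, and did not pass (Log2FC = -0.21, SE 0.94, adjusted p = 0.87), so a difference was not detectable at this depth. The glucocorticoid receptor nr3c1 was at 7.83 to 18.6 CPM in leg muscle and 1.57 to 3.72 CPM in spinal cord (Log2FC = 1.92, SE 0.38, adjusted p = 0.0011). Aromatase CYP19A1, which makes estrogen from androgen, took no reads in leg muscle and was at 0.459, 0.223, 0.116 and 0.128 CPM in spinal cords 1 to 4, at least 7-fold higher. Of the doublesex-related factors, DMRT2 (004515-RA) was at 6.24, 10.1, 6.83, 8.51 and 4.59 CPM in leg muscles 1 to 5 and 0.191, 0.0446, 0 and 0.16 CPM in spinal cords 1 to 4. It was higher in every leg muscle than in any spinal cord (Log2FC = 6.14, SE 0.74, adjusted p = 2.6e-05). DMRT3, a factor of spinal interneurons, took no reads in leg muscle and was at 8.57, 8.56, 6.51 and 7.22 CPM in spinal cords 1 to 4, at least 238-fold higher. These neighbouring IDs of the annotation (004515-RA and 004516-RA) thus lay on opposite sides.

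Cells that sheathe axons or line the cord lay on the spinal cord side, apart from Schwann cells. Of 15 astrocyte and ependymal genes, 11 were higher in spinal cord and 1 in leg muscle. The cilia factor foxj1-b of ependymal cells took no reads in leg muscle and was at 4.29, 5.71, 6.37 and 9.87 CPM in spinal cords 1 to 4, at least 203-fold higher. The factor sox10, which oligodendrocytes and Schwann cells share, was present in both tissues, at 9.67, 14.1, 19.3, 11.8 and 13 CPM in leg muscles 1 to 5 and 85.3, 98.3, 130.2 and 110.3 CPM in spinal cords 1 to 4 (Log2FC = -2.97, SE 0.23, adjusted p = 1.1e-06). Among 5 Schwann cell genes, 1 was higher in each tissue, and the 1 in spinal cord was the shared sox10. Without the lane 2 libraries the count in leg muscle was 0 and without spinal cord 3 it was 2. Of 9 smooth muscle and pericyte genes, 5 were higher in leg muscle and 1 in spinal cord, of 9 satellite cell genes 5 and 2, and of 7 adipocyte genes 3 and 2. Over all transcripts the shares were 25.7% and 29.9%. On lists as small as these and the Schwann cell list, the counts are not read as a difference from those shares. With library totals alone the smooth muscle and pericyte counts were 2 and 3, and 3 medians turned. That of the satellite cell list went from 1.11 to -0.87 (2 higher in leg muscle and 4 in spinal cord), that of the adipocyte list from 1.34 to -0.46 (1 and 3) and that of the Schwann cell list from 0.51 to -1.34 (0 and 3). The satellite cell count was 3 without leg muscle 4 or without the lane 2 libraries, and the adipocyte count 1 without the lane 2 libraries. The factor myf5 of satellite cells was at 16, 16.1, 17.7, 25.3 and 17.7 CPM in leg muscles 1 to 5 and was seen in the spinal cords in library 1 alone, at 0.306 CPM (Log2FC = 7.90, SE 0.95, adjusted p = 4.3e-05).

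Some abundant transcripts did not pass the test between the tissues. The chaperone HSP90AB1 (016429-RA) was at 3250.4, 3320.2, 2595, 2846 and 2889 CPM in leg muscles 1 to 5 and 2620.2, 3635, 3229 and 4147 CPM in spinal cords 1 to 4 (Log2FC = -0.19, SE 0.26, adjusted p = 0.54). Spinal cords 2 and 4 were above every leg muscle, and spinal cords 1 and 3 lay among them. With library totals alone it passed as lower in leg muscle (Log2FC = -2.07, adjusted p = 2.5e-05). The iron store protein ferritin, higher subunit (013054-RA) was at 1397 to 4620.2 CPM in leg muscle and 606 to 2316 CPM in spinal cord (Log2FC = 0.95, SE 0.49, adjusted p = 0.12), and passed without spinal cord 1 (Log2FC = 1.39, adjusted p = 0.047). The matrix protein sparc was at 357, 465, 407, 1324 and 6985 CPM in leg muscles 1 to 5 and 1056, 1615, 2373 and 2378 CPM in spinal cords 1 to 4 (Log2FC = 0.04, SE 0.82, adjusted p = 0.97), with leg muscle 5 above all spinal cords and leg muscles 1 to 3 below them. Without leg muscle 5 it was lower in leg muscle (Log2FC = -1.53, adjusted p = 0.017). ACTN1, a cytoplasmic relative of Actn3, was at 24.4 to 63 and 46 to 49 CPM (Log2FC = -0.06, SE 0.28, adjusted p = 0.86).

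Of transcripts with a mean of at least 10 CPM, the SD of log2 CPM between libraries had a median of 0.42 over 5635 transcripts in leg muscle and 0.31 over 5929 in spinal cord. The largest spread in leg muscle was in epidermal transcripts (KRT5, KRT1, a keratin-3 type transcript and others), which ran from near 0 in leg muscle 4 to their maximum in leg muscle 3. In spinal cord it was in liver transcripts, ALB, FGA, FGB, fgg and A1m, which were highest in spinal cord 1. Glutamine synthetase GLUL, which makes glutamine from glutamate and ammonia, was at 1697, 153, 150.5, 151 and 356 CPM in leg muscles 1 to 5 and 1143, 740.4, 932 and 815 CPM in spinal cords 1 to 4 (Log2FC = -0.86, SE 0.70, adjusted p = 0.32). Leg muscle 1 was above all spinal cords and the other leg muscles below them, and without leg muscle 1 the gene was higher in spinal cord (Log2FC = -2.16, adjusted p = 0.00069).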

How the data were processed

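RNA from leg muscle and spinal cord of Staurois parvus was sequenced after a stranded mRNA library preparation. The authors mapped reads with STAR 2.7 to their own genome assembly and deposited raw counts per transcript made with htseq-count on a MAKER annotation. Strand setting and the htseq version are not given in the sources used here, so overlapping and antisense genes may share reads. The 23777 entries belong to 19455 gene IDs. The 5 summary lines of each file were dropped; they held reads outside annotated transcripts, ambiguous and multi-mapped reads, and counted reads were 41.1% to 44.5% of all in leg muscle and 25.3% to 28.1% in spinal cord. No reference genome or sequence was used.

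All 11 libraries entered 1 fit in edgeR 4.0.16 (R 4.3.3) with TMM scaling and filterByExpr (minimum count 10, minimum total 15). Leg muscle was tested against spinal cord with glmQLFTest, Benjamini-Hochberg adjustment and a threshold of 0.05. SE is the absolute Log2FC over the square root of F. CPM are per 1000000 of the TMM-scaled library size and are not corrected for transcript length, so genes are compared between tissues and not with each other. A transcript without reads in a tissue is given as at least the fold over 3 reads in that tissue as a group, and a ratio from 1 to 3 reads with its exact 95% counting interval. Intervals and floors cover counting error only.

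Each list gene is its most abundant tested transcript by name. Of 1050 genes on 36 lists 751 were named in the annotation and 731 passed the filter. The members and lists were chosen with earlier results of these data known. Named genes came from the 10 lowest p per direction without overlap, the lowest p in each list, related genes, the most abundant transcripts, abundant transcripts that did not pass, those with the largest spread, and genes the study names, and examples were picked from these and from the lists after their values were seen. Some genes that this rule takes are not reported here. Epidermis, cartilage and bone, liver, exocrine pancreas and pigment cell lists, and the settings without leg muscles 1 to 3 or 4 and 5, were added after seeing the data. Alternatives were other scalings (RLE, upper quartile, library totals), DESeq2 1.42.0, limma-voom (limma 3.58.1), glmTreat, other filters, only both tissues, a replicate block, leaving out the lane 2 libraries, the 20 most abundant transcripts or single libraries, and counts per gene. The test was also run on simulated counts in which few transcripts changed between the tissues. Such counts do not cover scaling between tissues that differ as widely as these.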

Additional observations from a re-analysis of the deposited data

Results flagged for a closer look

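For each named gene and each of the lists drawn up after the values were seen, the highest or lowest library of a tissue was compared with the nearest of the others by Dixon's gap test. The test picked out 36 of 290 groups of values, where chance alone gives about 1 in 20 if groups are not chosen by their values. Here some genes and lists were named for a library that stood apart, some groups hold 1 to 3 reads in 1 library, and the groups share libraries, so the rate is not to be read against chance, and most of the libraries picked out are those described at the start of the report.

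In leg muscle 5 the highest values were those of cartilage and bone (7567 CPM summed), liver (555 CPM summed), COL1A2 (17716 CPM), DCN (266 CPM), MATN1 (1065 CPM), sparc (6985 CPM), eno1 (829.8 CPM) and SQLE (5.01 CPM). The same library held the highest traces in leg muscle of CHAT (0.295 CPM) and Mnx1 (0.168 CPM), and the only read of Olig1, Otp and JPH4 (0.0421 CPM each). Leg muscle 3 held the highest epidermal sum (106797 CPM), KRT1 (53189 CPM) and nr3c1 (18.6 CPM), with HOXD10 (0.183 CPM) and CACNA1A (0.122 CPM) near the floor of detection. Leg muscle 1 was the highest for SLC2A1 (384 CPM), GLUL (1697 CPM) and HMGCS1 (85.7 CPM), leg muscle 2 for Ybx3/ybx2-a (89848 CPM), and leg muscle 4 for myf5 (25.3 CPM) and, from 2 reads, PRDM8 (0.0847 CPM).

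In spinal cord 1 the highest values were those of the liver list (3810 CPM summed), the exocrine pancreas list (863 CPM summed), ALB (806 CPM) and, near the floor of detection, MYOG (0.115 CPM) and myf5 (0.306 CPM). Spinal cord 4 was the highest for MYBPC1 (40.3 CPM) and the lowest for CNTNAP1 (32.1 CPM). Spinal cord 2 was the lowest for Ank3 (141 CPM) and Acsl6 (69.4 CPM) and the highest for celf5 (27.8 CPM), and spinal cord 3 was the lowest for Slc25a5 (1074 CPM) and the highest for pitx1 (0.0872 CPM, from 3 reads).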

How the results depend on the processing

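The counts of transcripts higher in leg muscle (3585) and in spinal cord (4160) moved most with the scaling and with the size of change asked for. Library totals alone, which take no account of the share of reads held by a few muscle transcripts, gave 923 and 9493, and edgeR's glmTreat test against a Log2FC of 1 gave 2056 and 2757. Under every other setting tried both counts stayed within 1.5 times, and leaving out 1 library gave 3324 to 3636 in leg muscle and 3664 to 4104 in spinal cord. Of the 139 named transcripts tested, 120 kept their call and its direction, or stayed without a call, with library totals alone. Among transcripts called in either fit, the Log2FC changed sign for LBR (-0.081), RPL3 007148-RA (-1.15), NFIB (-0.53), HBB (-0.49) and Atf3 (-0.079). Changes of sign in transcripts called in neither fit were not counted. The Log2FC of sparc ran from -1.53 to 0.31 with 1 library left out (-1.53 without leg muscle 5) and was -2.17 without leg muscles 4 and 5. Without the lane 2 libraries 128 named transcripts kept their call and its direction or stayed without a call, 7 lost the call and 2 gained one. That setting leaves 2 of the 4 spinal cords, and over all transcripts it gave 2569 higher in leg muscle and 3235 in spinal cord. The part of the lane and that of the smaller group in these losses cannot be told apart. Depth limits transcripts near 3 reads per library, and the fitted Log2FC of a gene without reads in 1 tissue is no bound.

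With the replicate number as a block, 3374 transcripts were higher in leg muscle and 3963 in spinal cord. Whether equal numbers stand for the same frog is not given in the sources used here. The correlations that follow cannot decide it, since tissues this unlike need not deviate together in 1 frog. Same-numbered leg muscles and spinal cords deviated together with r = 0.15, -0.0491, 0.00197 and 0.00415 for numbers 1 to 4 across transcripts, and 3 of 4 correlated better with another number. In that fit leg muscle 5 has no partner. The block moved the Log2FC of sparc to -1.69, and GLUL gained and LBR and HBB lost their calls.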

Other observations

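Leg muscle reads were concentrated in fewer transcripts, with 39.3% to 53.7% on the 10 most abundant, against 5.70% to 7.35% in a spinal cord. Transcripts higher in leg muscle held 89.9% of the CPM of leg muscle, and those higher in spinal cord held 42.5% of the CPM of spinal cord. Both of these sets were chosen by their levels in the same libraries. Among transcripts that passed, 279 had no read in any leg muscle and 78 none in any spinal cord. Of 1632 tested transcripts without a protein name, 346 were higher in leg muscle and 402 in spinal cord, and their roles are not annotated in the files.

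An abundant leg muscle transcript outside the contractile and metabolic lists was a Y-box RNA-binding protein (Ybx3 or ybx2-a, 016352-RA), at 35197, 89848, 22424, 41554 and 24829 CPM in leg muscles 1 to 5 and 345, 221, 31.2 and 4.79 CPM in spinal cords 1 to 4 (Log2FC = 8.15, SE 1.45, adjusted p = 0.00055). Leg muscle 2 was the highest of its tissue, as it was for Rpl3 001317-RA and MYOD1. Spinal cords 1 and 2 were above spinal cords 3 and 4 for it, as they were for the summed sarcomere genes.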
